A study of Bos taurus with 94 samples.

Results

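The inner eye was represented by 2 of the 94 bovine tissue libraries of this resource, 1 labelled Pigment_epithelium_eye and 1 labelled Ant_Eye, which are called the pigment epithelium and the anterior eye library here. The labels do not spell out Ant_Eye, and reading it as the anterior eye was not checked against marker genes. They were chosen by these tissue labels alone and set against the 8 libraries of brain tissue, namely cerebral, frontal and temporal cortex, thalamus, pons, midbrain, hippocampus and diencephalon. All 10 libraries carry the breed label Hereford and the age label adult, and no treatment, sex or animal is named. The RNA was total RNA from snap-frozen pieces of tissue, sequenced in bulk, so a smaller number of cells of a type and less RNA per cell cannot be told apart. The question was how the inner eye differs from the brain and how the 2 eye tissues differ from each other.

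The pigment epithelium of the eye is a pigmented cell layer behind the retina that supplies and renews the photoreceptors. It forms, like the retina, from an outgrowth of the embryonic forebrain. The front of the eye holds the cornea, lens, iris and ciliary body, whose sources include surface ectoderm and the neural crest. The deposited table names genes by Ensembl identifier only, and none of its 24616 identifiers could be paired with a symbol from the tables used here. Markers of photoreceptors, pigment cells or lens were therefore not examined, and genes are described by the tissues in which they are expressed.

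Levels are FPKM (fragments scaled to transcript length and to library size). Differences are on the log2(FPKM + 1) scale, which understates those of low genes. Genes that reached 1 FPKM numbered 13003 in the pigment epithelium and 11859 in the anterior eye, against 12592 ± 1011 in brain (SD, n = 8; range 10891 to 13661). The groups overlapped, and the difference in means did not pass a two-sided exact permutation test (p = 0.889). The top 10 genes by level took 31.4% of all FPKM in the pigment epithelium and 13.7% in the anterior eye, against 32.3 ± 9.68% in brain (exact permutation p = 0.267). The read depth behind the FPKM is unknown. The 2 eye libraries are different tissues, and the labels name no separate animals, so p-values measure only the spread between these libraries.

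The pons library stood apart from the other brain libraries. Its Spearman correlation with them across 18031 genes ran from 0.806 to 0.872, while the other 7 correlated with one another at 0.861 to 0.984. The main counts against brain are given with and without it.

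Neither eye library had the other, or a brain region, as its closest profile. The pigment epithelium library was closest to the aorta (Spearman's rho 0.883), the contralateral isthmus of the oviduct (0.882) and the trachea (0.877). Follicle replicate 3 (0.874), ureter (0.872) and uterine myometrium (0.869) came next. The anterior eye library was closest to the nasal mucosa (0.873), the ipsilateral isthmus (0.858) and the fat labelled KPH_fat (0.850). The 2 isthmus libraries, from the same organ, thus parted between the eye libraries. The ipsilateral isthmus correlated at only 0.742 with the pigment epithelium, and the contralateral isthmus at 0.793 with the anterior eye. The part of differences between libraries, other than those of tissue, in these rankings was not tested. The 2 eye libraries correlated with each other at 0.777, below every one of the 28 pairs of brain libraries (0.806 to 0.984). With the brain libraries the pigment epithelium correlated at 0.739 to 0.813, and it was farthest from the pons. The anterior eye correlated at 0.838 with the pons but at only 0.696 to 0.751 with the other 7 brain libraries. Of the outer eye tissues, the library labelled Cancer_eye correlated at 0.755 with the pigment epithelium and 0.810 with the anterior eye, and the normal outer layer 1 cm away at 0.743 and 0.703. Genes within a library are not replicates, so each of these correlations is a description only.

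**Figure D1:**
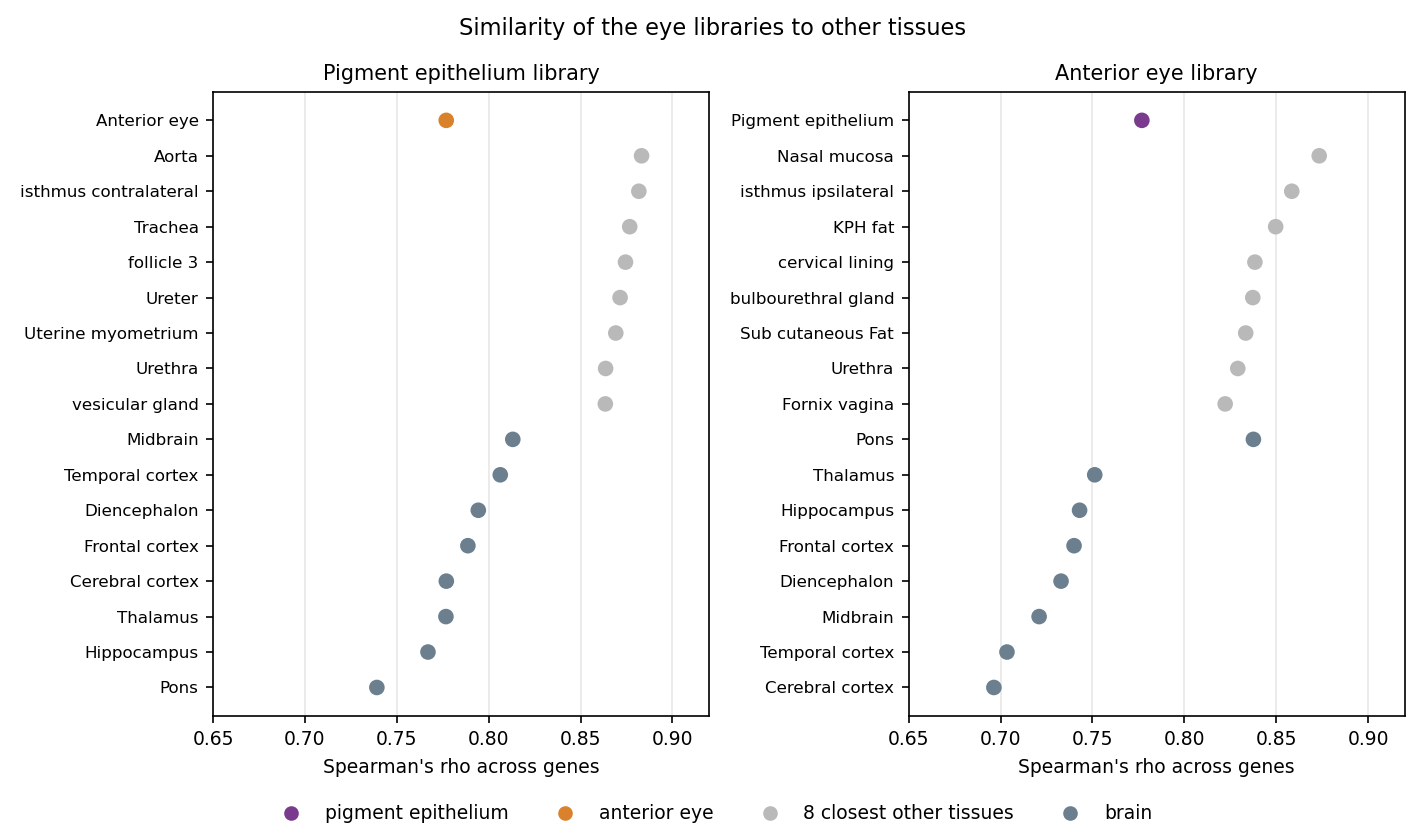
Spearman's rho across 18031 genes between each eye library and other libraries (x axis); rows show the other eye library, the 8 closest tissues outside brain and eye, and the 8 brain libraries. The pigment epithelium is nearest to the aorta (0.883), and the pons (0.838) stands apart from the other brain regions in its similarity to the anterior eye.

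Against brain, 1043 genes were higher and 632 lower in the inner eye of 14680 genes tested (limma; Benjamini-Hochberg adjusted p under 0.05, with at least 1 log2 unit between the group means), or 7.1% and 4.31% of the genes, 11.4% in either direction. The 1043 include genes that entered the test only through the eye libraries, and the 632 include genes that entered only through brain. For such genes a call is partly fixed by the choice of genes to test, and they were not counted apart. Genes called higher had a median log2 difference of 2.18 and genes called lower one of -2.79, beside -0.06 over all genes tested. Both eye libraries lay above all 8 brain libraries in 988 of the 1043 genes called higher (94.7%). They lay below all 8 in 595 of the 632 called lower (94.1%). Against the 7 brain libraries other than the pons these counts were 1024 and 613. Such a separation largely follows from the call itself. Over all tested genes it was found in 11% upward and 7.47% downward against the 8 brain libraries. Against the 7 it was found in 13.7% upward and 11.6% downward. Without the pons 1374 genes were higher and 1160 lower, 2534 in all, and 1671 of the 1675 calls remained. With the 3 cortex libraries alone as brain, the balance turned to 1177 higher and 1242 lower, and fewer of the 1675 calls remained (1373).

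Each eye library was also set against brain on its own, with the spread taken from the 8 brain libraries and the lone library assumed to vary like them. The pigment epithelium had 728 genes higher (4.96%) and 361 lower (2.46%), 7.42% in all. The anterior eye had 829 higher (5.65%) and 274 lower (1.87%), 7.51% in all. Both comparisons share the brain libraries. At an unadjusted limma p under 0.05 they held 22.6% of the genes for the pigment epithelium and 24.6% for the anterior eye, and 24.4% for the 2 together. The group comparison without 1 eye library is this same contrast, with the genes to test chosen anew from the libraries that remain. It then held 14388 genes without the pigment epithelium and 14380 without the anterior eye.

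The gene furthest above brain, ENSBTAG00000003134, had 1912 FPKM in the pigment epithelium and 968 in the anterior eye, against a listed value of 0 in each of the 8 brain libraries. It entered the comparison only through the 2 eye libraries, so no p is given. Among the 84 other libraries its highest levels were 50.02 FPKM in the larynx cartilage, 31.2 in the bulbourethral gland and 1.45 in the library labelled adrenal, and the median was 0. The gene was thus abundant in both eye tissues, with lower levels in a few other tissues. ENSBTAG00000007440 showed the same pattern, with 504 FPKM in the pigment epithelium and 389 in the anterior eye, against a listed value of 0 in all 8 brain libraries, and it too passed the filter only through the eye. Its next levels were 15.5 FPKM in the larynx cartilage, 10.95 in the bull testis and 0.971 in the liver. The pineal gland, a light-related organ in other vertebrates, was listed at 0 for both genes.

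In the other direction, ENSBTAG00000009774 was listed at 0 in the pigment epithelium and in the anterior eye, against 143.7 FPKM in cerebral, 149.6 in frontal and 182.1 in temporal cortex, 564 in thalamus, 83.9 in pons, 635 in midbrain, 249 in hippocampus and 950 in diencephalon. It passed the filter only through brain, so no p is given. All brain regions carried it, and outside brain its highest level was 32.9 FPKM in the posterior pituitary, a neural lobe. ENSBTAG00000022890 had 56.1 FPKM in the pigment epithelium and 12.7 in the anterior eye, against 3914, 6116 and 5625 in cerebral, frontal and temporal cortex, 19876.5 in thalamus, 8987 in pons, 12499 in midbrain, 3482 in hippocampus and 10203 in diencephalon. The log2 difference was -8.08 ± 0.73 (SE; limma adjusted p = 4.96e-05). The lowest brain region thus stood far above both eye libraries, and the posterior pituitary, at 730 FPKM, was the next tissue after brain.

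**Figure D2:**
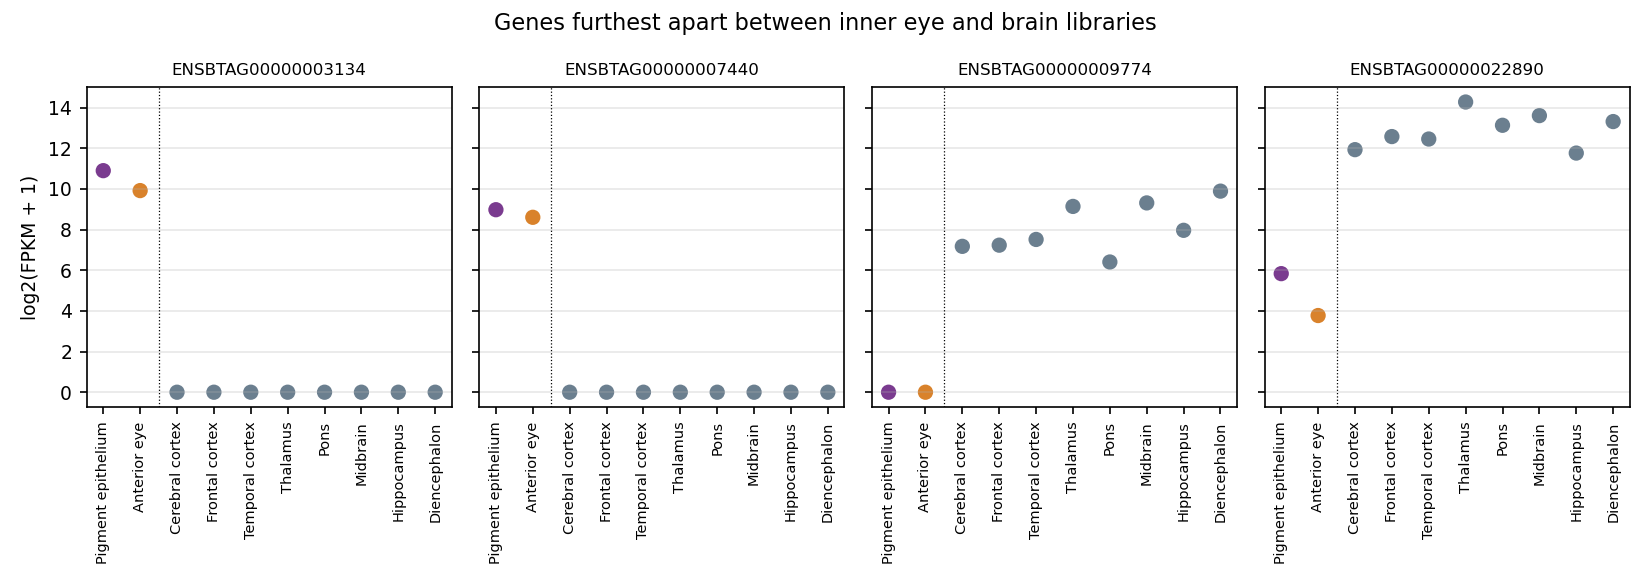
Level of the 2 genes furthest above and the 2 furthest below brain, as log2(FPKM + 1) on the y axis, in the pigment epithelium (purple), the anterior eye (orange) and 8 brain libraries (blue-grey). The first 2 genes are listed at 0 in every brain library; ENSBTAG00000009774 is listed at 0 in both eye libraries.

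The 84 libraries that are neither eye nor brain played no part in these calls, but the brain and eye values did, so counts that set the other tissues against brain or eye are partly fixed by the calls and are descriptions. Of the 1043 genes higher in the eye, 672 (64.4%) had a median level over the 84 other tissues above all 8 brain libraries. Over all genes tested the share was 16.4%. Set against the 7 brain libraries other than the pons, 750 genes (71.9%) had such a median, beside 20.4% of all genes tested. The mean level of the 1043 genes was 4.73 in the pigment epithelium and 4.94 in the anterior eye on the log2(FPKM + 1) scale. It was 1.87 to 2.64 in the brain libraries, and the median over the 84 other libraries was 3.68. The other tissues with the highest means were the fornix of the vagina (4.43), ureter (4.41) and urethra (4.38), and the pineal gland (3.38) ranked 58th of 84. Of the 1043 genes, 48 (4.60%) were higher in both eye libraries than in all 84 other tissues. Over all 14680 genes tested 59 (0.402%) were.

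Of the 632 genes lower in the eye, 621 (98.3%) had a median over the 84 other tissues below all 8 brain libraries. Over all genes tested the share was 17.7%. Set against the 7 brain libraries other than the pons, 624 genes (98.7%) had such a median, beside 22.6% of all genes tested. The 632 genes reached an FPKM of 1 in a median of 42 of the 84 other libraries, against 80 for all genes tested. Their mean level was 2.18 in the pigment epithelium and 2.41 in the anterior eye, against 4.67 to 5.56 in brain, with a median of 1.84 over the other tissues. Outside brain they were highest in the posterior pituitary (4.03), the pituitary stalk with median eminence (3.60) and the pineal gland (3.30).

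**Figure D3:**
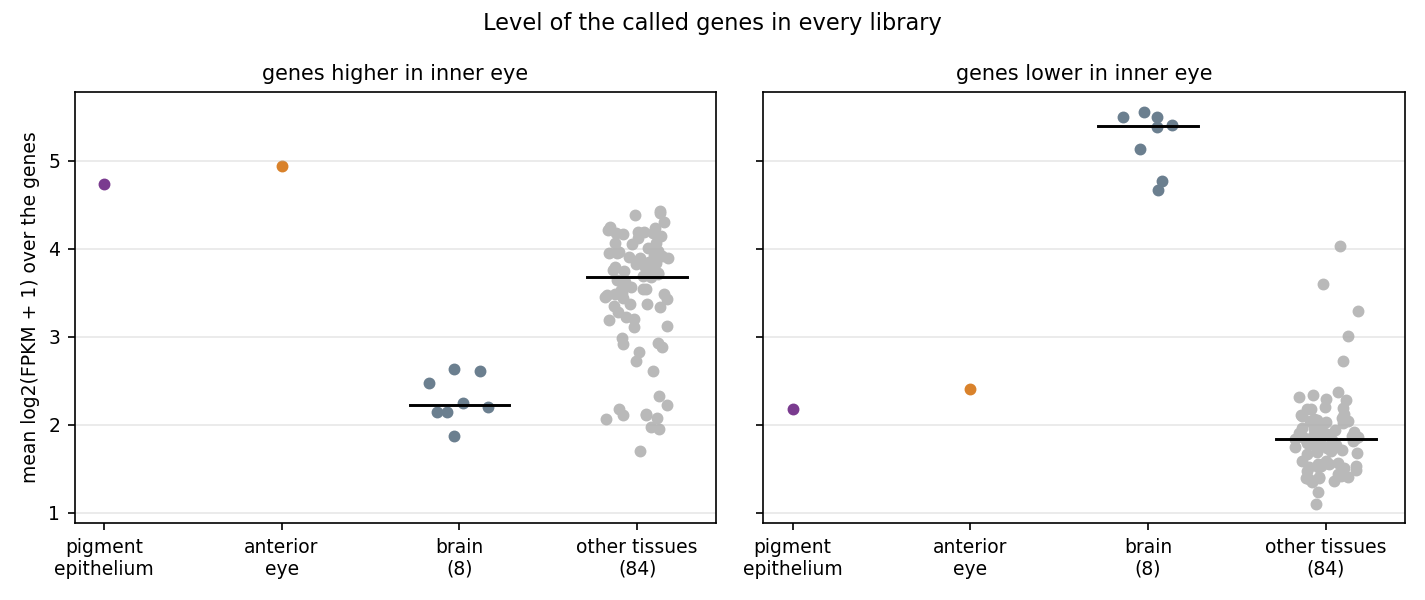
Mean log2(FPKM + 1) over the 1043 genes higher (left) and the 632 genes lower (right) in inner eye than brain; each point is a library and black lines are medians of the 8 brain and the 84 other libraries. For the genes called higher the other tissues have a median of 3.68, above every brain library; for those called lower it is 1.84, below every brain library.

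A small set of genes stood well above all other libraries in the eye. The same count is not given for other libraries, so it is not known whether these counts are unusual. In the pigment epithelium library 28 of the 6561 genes that reached 10 FPKM (0.427%) stood at least 4-fold above all 92 libraries outside the eye on the log2(FPKM + 1) scale. In the anterior eye 47 of 6369 (0.738%) did. The 28 genes had a median of 91.7 FPKM in the pigment epithelium and 16.0 in the anterior eye, which also reached 10 FPKM in 18 of them. Of the 47, the pigment epithelium reached 10 FPKM in 15 and stayed under 1 FPKM in 24. Their median was 0.846 FPKM in the pigment epithelium against 101.5 in the anterior eye.

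In 11 genes both eye libraries stood at least 4-fold above all 92 others at 10 FPKM or more. They are part of the 28 and of the 47 genes above. Of all 14680 genes tested against brain, 51 were higher in both eye libraries than in all 92 others by any margin. These genes ranged from 52.7 to 1912 FPKM in the pigment epithelium (median 266) and from 11.7 to 968 in the anterior eye (median 186). In the brain libraries their highest level had a median of 0.308 FPKM over the 11 genes and a maximum of 86.1, in the midbrain. The library labelled larynx cartilage was next in 8 of the 11, with a median of 7.77 FPKM and at least 1 FPKM in 10 of them. Its level was 0.522% to 9.03% of that in the pigment epithelium and 1.05% to 6.21% of that in the anterior eye. Where the larynx values come from was not tested. With a 2-fold gap in place of 4-fold, 17 genes led both eye libraries.

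Genes typical of other tissue classes were then followed into the eye. For each class, genes were ranked by how far the median of its libraries exceeded the 90th percentile of all libraries outside it, eye excepted. The first 50 were taken, and their mean log2(FPKM + 1) was read in each eye library. These sets are named by tissue, not by cell type. The brain libraries took part in the choice, as the class itself for the brain set and among the low libraries for every other set. Calls against brain are partly fixed by this and are not given for these sets. The other libraries outside a class served as low libraries too, while the eye did not. An eye level above such low libraries, brain among them, is therefore favoured by the choice, and the levels and ranks below are descriptions.

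The brain set was lower in both eye tissues than in every brain library. It averaged 1.42 in the pigment epithelium and 2.77 in the anterior eye, against 5.80 to 7.81 in the brain libraries that served to choose it. The median of the other tissues was 0.593, but they are low by the choice of the set. Among those 84 libraries the pigment epithelium would rank 8th and the anterior eye 4th, and the posterior pituitary was highest at 5.16. In the pigment epithelium 23 of the 50 genes reached 1 FPKM and 7 reached 10 FPKM, and in the anterior eye 38 and 19 did.

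Genes of walls rich in smooth muscle (aorta, myometrium, vas deferens, ureter and urethra) lay above the brain range in both eye libraries. They averaged 5.35 in the pigment epithelium and 4.09 in the anterior eye, against 2.32 to 3.68 in brain, and 6.39 to 7.59 in the class itself. Set among the 87 libraries outside this class and the eye, the pigment epithelium would rank 6th and the anterior eye 33rd, where the median was 3.65 and the trachea was highest at 7.63.

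The tongue and esophagus set and the forestomach set separated the eye tissues from each other. Both sets share some of their genes, so they are not independent. The tongue and esophagus set averaged 0.380 in the pigment epithelium and 2.89 in the anterior eye, with 0.134 to 0.555 in brain. The forestomach set averaged 0.460 in the pigment epithelium and 3.32 in the anterior eye, with 0.176 to 0.686 in brain, and 3 of its 50 genes reached 10 FPKM in the pigment epithelium and 22 in the anterior eye. The pigment epithelium was within the brain range for both sets and the anterior eye far above it. Limb and trunk muscle genes averaged 0.778 in the pigment epithelium and 2.14 in the anterior eye, with 0.725 to 1.38 in brain, and 1 of the 50 genes reached 10 FPKM in the pigment epithelium and 14 in the anterior eye. Kidney genes leaned the other way, at 1.18 in the pigment epithelium and 0.561 in the anterior eye, with 0.231 to 0.448 in brain. In the pigment epithelium 24 of the 50 kidney genes reached 1 FPKM but 1 reached 10 FPKM. Lymphoid genes averaged 1.21 in the pigment epithelium and 1.27 in the anterior eye, with 0.419 to 1.31 in brain and 5.68 to 6.22 in the lymphoid organs and blood cells. The brain value of 1.31 was the pons, and the other 7 brain libraries, at 0.419 to 0.660, lay below both eye libraries. Fat depot genes averaged 2.53 in the pigment epithelium and 2.66 in the anterior eye, above the brain range of 1.49 to 2.19. This set marked fat poorly: the fat depots ran from 2.69 to 6.46, and the vesicular gland, outside the class, reached 6.56. The median of the libraries outside the class and the eye was 2.22. Pituitary and pineal genes averaged 0.683 in the pigment epithelium and 1.83 in the anterior eye, with 1.26 to 3.21 in brain. Intestine genes averaged 0.140 in the pigment epithelium and 0.573 in the anterior eye, and heart genes 0.950 in the pigment epithelium and 0.984 in the anterior eye. The part of neighbouring tissues in the eye differences was not tested.

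**Figure D4:**
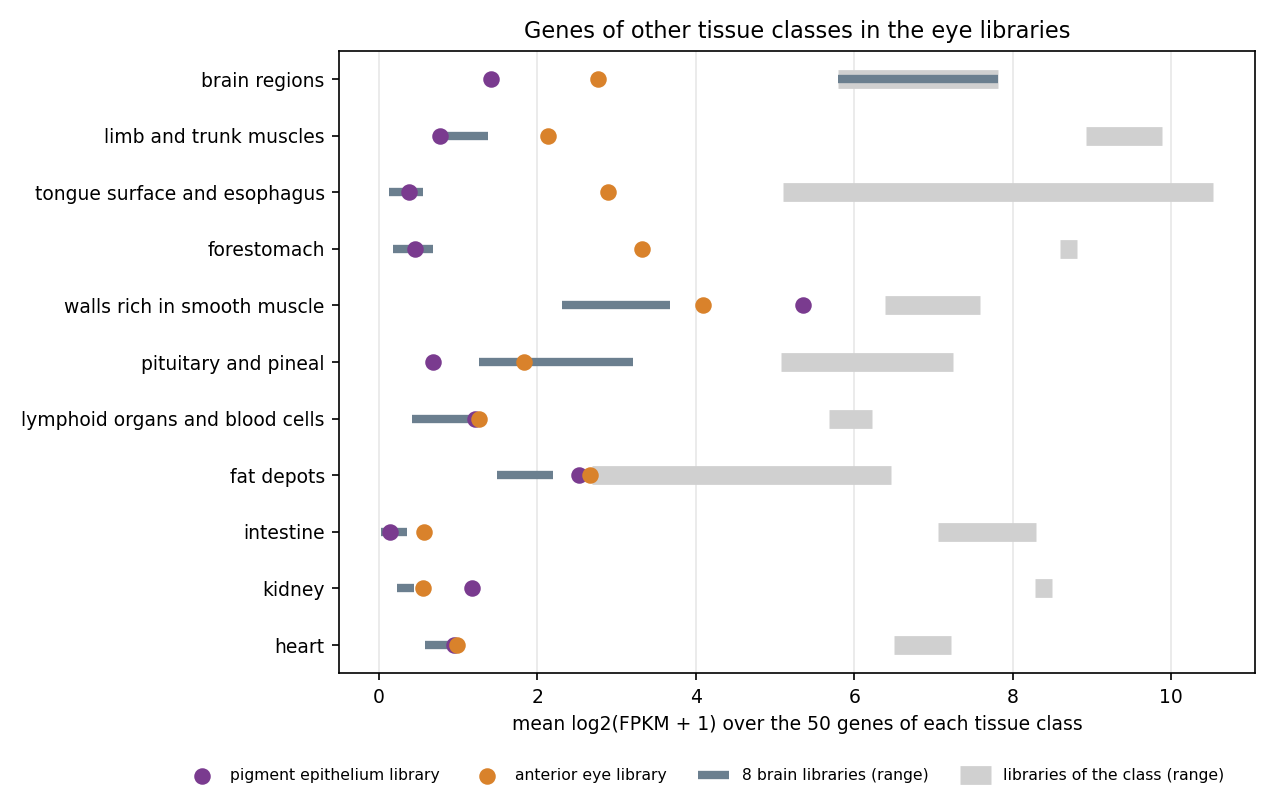
Mean log2(FPKM + 1) over the 50 genes of each tissue class (x axis) in the pigment epithelium (purple) and anterior eye (orange) libraries, with the range of the 8 brain libraries (blue-grey bars) and of the class's own libraries (light grey bars). The pigment epithelium is highest for walls rich in smooth muscle (5.35), and the anterior eye exceeds brain for the tongue and esophagus (2.89) and forestomach (3.32) sets.

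Between the 2 eye libraries there is 1 library of each tissue, so their difference has no replicate check, and no test of it was made. Of 8032 genes that reached 10 FPKM in at least 1 of them, 1002 (12.5%) were at least 4-fold higher in the pigment epithelium on the log2(FPKM + 1) scale and 819 (10.2%) at least 4-fold higher in the anterior eye, 22.7% in all. The split depended on scaling: the share of these genes that was higher in the pigment epithelium was 55.0% as deposited and 68.3% after rescaling to equal FPKM totals, with 1243 and 577 genes.

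The gene furthest toward the pigment epithelium, ENSBTAG00000046263, had 90.9 FPKM there and was listed at 0 in the anterior eye, and brain had a median of 0.738 FPKM. Its highest levels elsewhere were 91.1 FPKM in the trachea, 83.1 in the reticulum and 64.6 in the aorta. ENSBTAG00000014567 had 165.6 FPKM in the pigment epithelium and 0.814 in the anterior eye, a log2 difference of 6.52. Elsewhere it was highest in the uterine myometrium (542 FPKM), vas deferens (365) and urethra (251). Both genes thus had their highest levels outside the eye in organ walls.

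Toward the anterior eye, ENSBTAG00000012034 had 0.561 FPKM in the pigment epithelium and 7877 in the anterior eye, a log2 difference of -12.30. Its highest levels elsewhere were 71920 FPKM in the esophagus, 44132 in the lower tongue and 35953 in the superficial tongue. ENSBTAG00000012640 had 4.77 FPKM in the pigment epithelium and 13364 in the anterior eye, a log2 difference of -11.18, and was highest elsewhere in the superficial tongue (16700 FPKM), lower tongue (12640) and eye cancer (9783). Both genes were thus abundant in the tongue as well. In brain ENSBTAG00000012640 had 85.2 FPKM in the pons, beside a median of 1.98 over the 8 regions.

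The difference between the eye tissues ran parallel to a difference inside the brain. Of the 1002 genes higher in the pigment epithelium, 791 (78.9%) were at least 2-fold lower in the pons than in the mean of the other 7 brain libraries, beside 24.4% of all 8032 genes compared, and 20 were higher. Of the 819 genes higher in the anterior eye, 322 (39.3%) were at least 2-fold higher in the pons, beside 15.9% of all genes compared, and 38 were lower. The anterior eye and the pons thus departed from their partner tissues in the same direction. Across 14680 genes, the pigment epithelium minus anterior eye difference had a Pearson correlation of -0.53 with the deviation of the pons from the other brain libraries. The same correlation ran from -0.08 to 0.49 for the other 7 brain libraries, highest for the temporal cortex. Each of those 7 deviations is from a mean that includes the pons, so they are not independent of it. These values are descriptions across genes of 1 set of libraries. The FPKM total was 688491 in the pigment epithelium and 844642 in the anterior eye, and it was 907444 in the pons and 642677 to 835450 in the other brain libraries. The part of the FPKM total in this pattern was not tested.

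**Figure D5:**
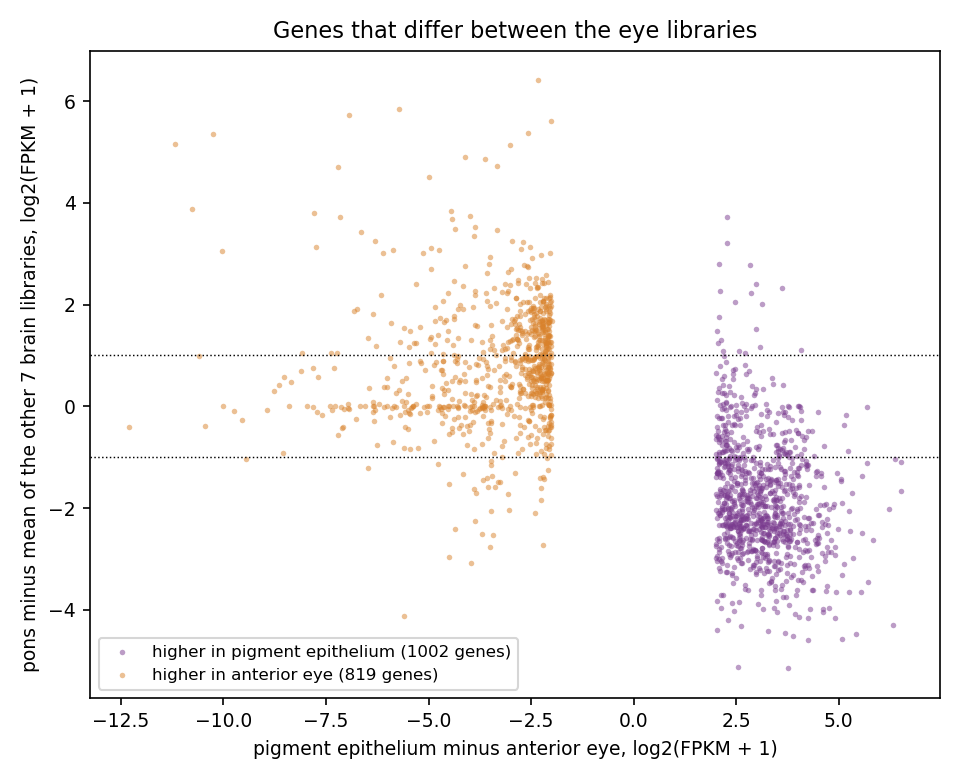
Each point is 1 of 1821 genes at least 4-fold apart between the eye libraries, with the pigment epithelium minus anterior eye difference on the x axis and the pons minus the mean of the other 7 brain libraries on the y axis, both in log2(FPKM + 1). Most genes higher in the pigment epithelium (purple, 791 of 1002) lie below the lower dotted line at -1.

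In 4798 of the 8032 genes compared (59.7%) the pons was within 2-fold of the other brain libraries. Of these 4798 genes, 191 were higher in the pigment epithelium and 459 in the anterior eye. The 191 were 19.1% of the 1002 genes higher in the pigment epithelium, and the 459 were 56.0% of the 819 higher in the anterior eye. The 459 genes averaged 2.04 in the pigment epithelium and 5.70 in the anterior eye on the log2(FPKM + 1) scale, and among the 84 other libraries they were highest in the eye cancer (4.48), superficial tongue (4.44), bulbourethral gland (4.35) and esophagus (4.18), with a median of 2.77. The 322 genes that were also higher in the pons were instead highest in the ipsilateral isthmus (6.14), the nasal mucosa (5.88) and the bulbourethral gland (5.54). The 191 genes averaged 5.199 in the pigment epithelium and 2.27 in the anterior eye, and were next highest in the contralateral isthmus (3.69), follicle replicate 3 (3.68) and lung (3.68).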

How the data were processed

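The deposited table holds FPKM values for 24616 Ensembl gene identifiers in 94 libraries, computed by the authors; per the submitters' processing notes HISAT2, StringTie and the genome build UMD3.1 were used. Tool versions and annotation were not given in the sources used here. FPKM totals differ between libraries, and abundant genes lower the values of the others. Genes that reached 1 FPKM in 2 or more of the 10 eye and brain libraries were tested on log2(FPKM + 1) with limma 3.58.1 in R 4.3.3 (trended empirical Bayes, two-sided). This fit was checked on simulated data. Single values per library were compared by exact permutation (scipy 1.17.1). Genes were named by the largest difference with no overlap between groups, or, between eye libraries, by the largest difference alone. Since 0 of 24616 identifiers matched a symbol, the planned marker lists were not used and at most 2 identifiers are given per direction; tissue gene sets replaced them after the names proved missing. Members, lists and sets were chosen with earlier results of these data known. Python 3.11.15, pandas 2.3.3 and numpy 2.4.6 were used.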

Additional observations from a re-analysis of the deposited data

Results flagged for a closer look

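The spread of the 8 brain libraries was examined for 22 values used above, and in 3 of them a library stood far from the other 7 (by Dixon's ratio of gap to range); chance flags about 1 group in 20. ENSBTAG00000012640, high in the anterior eye, was 6.43 on the log2(FPKM + 1) scale in the pons, against 0 to 2.63 in the other brain libraries. The lymphoid gene set averaged 1.31 in the pons, against 0.419 to 0.660 in the others. The heart gene set averaged 0.588 in the thalamus, against 0.800 to 0.964 in the others.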

How the results depend on the processing

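The count of 1675 genes called between inner eye and brain ranged from 1369 with equal totals to 2008 with quantile normalization over the pseudocount, filter, scaling and grouping alternatives that used all 10 libraries, and none of the calls changed sign under any alternative. With the cortex as brain 1242 genes were lower. Leaving out each library in turn gave 901 to 2534 genes, 563 to 1374 higher and 269 to 1160 lower. ENSBTAG00000003134 and ENSBTAG00000007440 could not be fitted without an eye library, since fewer than 2 libraries then reached an FPKM of 1; ENSBTAG00000022890 stayed past the threshold in all 17 alternatives (limma adjusted p from 1.77e-05 to 0.00239). With a minimum FPKM of 1, 1553 genes were higher in the pigment epithelium than in the anterior eye. Among the 4798 genes with the pons within 2-fold of the other regions, the counts were 191 and 459. This alternative was chosen, like the counts against 7 brain libraries, after seeing the data. The difference in genes detected, -161, became 18.3 at a minimum FPKM of 5 and ran from -733 to 411 when single libraries were left out; the share of the top 10 genes differed by -18.6 to -0.907 percentage points. With 25 or 100 genes per tissue set, the forestomach level of the anterior eye was 2.55 or 3.65. No paired analysis was possible because the labels give no replicate numbers. The unknown read depth limits what can be said of low genes.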

Other observations

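The most abundant genes also differed between the eye tissues. Of the 10 most abundant genes of the pigment epithelium, 9 were also among the 10 with the highest brain median, and 4 were also in the top 10 of the anterior eye. The overlap with other tissues is not given. The genes ranked 1 to 9 were each higher in some tissue outside eye and brain than in the pigment epithelium, and the gene ranked 10 was not. The first had 37986 FPKM in the pigment epithelium and 75445 in the library labelled Ventricle. In the anterior eye 4 of the 10 were among the 10 of brain, and 2 were under 10 FPKM in every brain library. The most abundant gene of the anterior eye had 16.8 FPKM in the pigment epithelium and 21744 in the anterior eye, with 0.463 to 151.9 FPKM in brain (median 4.89) and 40664 in the superficial tongue. A gene at 303 FPKM in the pigment epithelium and 8182 in the anterior eye ranged from 12.6 to 309 FPKM in brain and reached 7696 in the ipsilateral isthmus.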
